A study of Mus musculus with 4 samples.

Results

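Serotonin (5-HT) receptor genes were examined on arrays from mice given ketamine or saline. The genes were Htr1a, Htr1b, Htr2a, Htr2c, Htr3a, Htr4, Htr5a, Htr6 and Htr7, taken as the rows of the value table whose annotated symbol was exactly one of these names. Each of the 9 genes had 1 row, among 21789 rows with exactly 1 gene symbol that stood for 19938 genes. Of these 9 genes, 8 were lower on the arrays titled ketamine in limma at an adjusted p under 0.05, against 9.71% of all rows. The 8 were lower by 1.58-fold to 4.84-fold, and Htr1b did not pass the test.

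The samples were 4 one-colour Affymetrix Mouse Gene 1.0 ST arrays, each of total RNA from the brain of 1 ICR mouse, in 2 groups of 2. Ketamine, an NMDA receptor antagonist, was injected intraperitoneally once a day at 30 mg/kg, below the anaesthetic dose, for 3 months from an age of 1 month, and normal saline was the control. All 4 samples were labelled as prefrontal cortex. The sample titles name 2 arrays saline and 2 ketamine, but the source field of the labels names the opposite treatment for each array, so that every direction given here follows the titles and would be turned by the source field. Gabra5, a subunit gene of the GABA-A receptor that was singled out after its values were seen, read 8.87 and 8.76 on the arrays titled saline and 5.02 and 6.95 on those titled ketamine. Its log2 difference of -2.83 (adjusted p = 0.00669 from limma) was -1.87 without titled ketamine array 1 and -3.80 without array 2. For this gene the study describes the direction opposite to that of the titles, and a smaller fold change. Exchanging the labels would turn the direction but would not match the size. Which label is right cannot be told from these values. The labels give female mice and the methods male mice. RMA gave the log2 expression values, with array medians from 5.90 to 6.04.

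Serotonin is released by neurons whose cell bodies lie in the raphe nuclei of the brainstem and whose axons reach most of the brain. The receptors of the 5-HT1 and 5-HT5 families couple to inhibitory G proteins (Gi and Go), those of the 5-HT2 family to Gq and phospholipase C, and the 5-HT4, 5-HT6 and 5-HT7 receptors to Gs and adenylyl cyclase. The 5-HT3 receptor is the exception, an ion channel opened by serotonin. In cortex the 5-HT2A receptor is known from pyramidal cells of the deep layers and the 5-HT3 receptor from a class of interneurons, and the 5-HT2C receptor is abundant in the choroid plexus.

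The tissue label was not borne out alike on the 4 arrays. Of 9 measured cerebellar markers, 9 were higher on the arrays titled ketamine (limma adjusted p under 0.05, which 23.4% of all rows passed in that direction), and the mean log2 level of the list was 5.82 and 5.01 on the arrays titled saline against 9.61 and 9.42. Of 7 measured markers of cortical projection neurons, 6 were lower (9.71% of all rows), with mean levels of 8.23 and 8.31 against 5.50 and 5.39. The cortical transcription factor Tbr1 read 3.73 and 3.69 on the arrays titled ketamine, below the 95th percentiles of 1035 olfactory receptor rows (4.56 and 4.46), which serve here as a level without brain expression. The arrays titled saline also read genes known from other regions. The mean level of a list of striatal markers was 9.22 and 9.18 on them. Tph2, the gene of an enzyme of serotonin neurons, read 6.15 and 6.09, above the olfactory receptor level. Pure prefrontal tissue is not shown for these arrays either, and the part of other regions in them was not tested. Treatment and tissue therefore cannot be told apart in any of the differences below. In such bulk RNA, fewer cells of a type and less RNA per cell also cannot be told apart. The arrays within a group correlated at 0.995 and 0.996 across rows, and arrays of different groups at 0.959 to 0.969. The median difference of all rows was 0.13 on the log2 scale.

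To show the DNA ahead of a receptor gene with a large difference and of the one whose groups overlapped, the 250 bases before the start of Htr2a and of Htr1b are printed 5′ to 3′, from RefSeq on GRCm38.p6. Capitals mark matches, on either strand, to the letters TATAAA (the TATA box), GGGCGG (the GC box), CCAAT (the CCAAT box) and TGACG (the core of the cAMP response element). The Htr2a window lies at chr14:74640624-74640873 on the plus strand and the Htr1b window at chr9:81633833-81634082 on the minus strand.
Htr2a: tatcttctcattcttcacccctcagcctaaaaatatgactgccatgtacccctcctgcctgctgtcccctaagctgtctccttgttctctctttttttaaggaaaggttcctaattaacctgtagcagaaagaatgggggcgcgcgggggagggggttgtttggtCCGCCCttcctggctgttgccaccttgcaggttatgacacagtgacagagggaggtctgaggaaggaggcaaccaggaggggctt
Htr1b: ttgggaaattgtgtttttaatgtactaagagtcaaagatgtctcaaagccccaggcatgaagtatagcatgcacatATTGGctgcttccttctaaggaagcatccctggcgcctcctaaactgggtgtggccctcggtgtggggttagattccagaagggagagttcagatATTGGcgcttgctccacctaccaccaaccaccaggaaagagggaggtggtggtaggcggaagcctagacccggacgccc
The Htr2a window held 1 GC box, read on the opposite strand, and the Htr1b window held 2 CCAAT boxes, also read on the opposite strand. Windows were on hand for 7 of the 9 genes, 8 windows in all since Htr6 had 2 starts. The GC box was in 3 of these 8 windows and in 32.7% of 32817 windows of all genes. The CCAAT box was in 2 of 8 against 33.8%, TGACG in 1 of 8 against 17.7%, and TATAAA in 0 of 8 against 12.4%. The Htr2a window held 4 CpG dinucleotides and the Htr1b window 6, where the median of all windows was 6. The Htr7 window held 41, more than 98.9% of all windows did. These matches describe the letters and were not related to the array values.

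Of the 9 receptor genes, 8 were lower and 0 higher in limma at an adjusted p under 0.05, where 9.71% of all 21789 rows were lower. The same 8 were past 1.3-fold lower (9.87% of all rows), one of several fold limits that the study counts genes at, and 5 of them were past 2-fold lower (2.98% of all rows). In these 8 genes both arrays titled ketamine read below both arrays titled saline, as in 21.5% of all rows. The median log2 difference of the 9 genes was -1.01, beside 0.13 for all rows. An exact two-sided permutation test of 2 arrays against 2 could not give a p below 0.333, and the limma p-values rest on the spread between these arrays alone. With either of the arrays titled ketamine (1 or 2) left out, 0 of the 9 genes and 0 of all rows passed in limma, with the 8 genes at an unadjusted p under 0.05 each time. Without titled saline array 1 the calls on Htr1a and Htr2c were lost, and without titled saline array 2 that on Htr7 as well. All 8 stayed past 1.3-fold lower with any 1 array left out. Relative to the median of all rows, the 8 differences lay from -2.41 for Htr2a to -0.79 for Htr6.

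**Figure D1:**
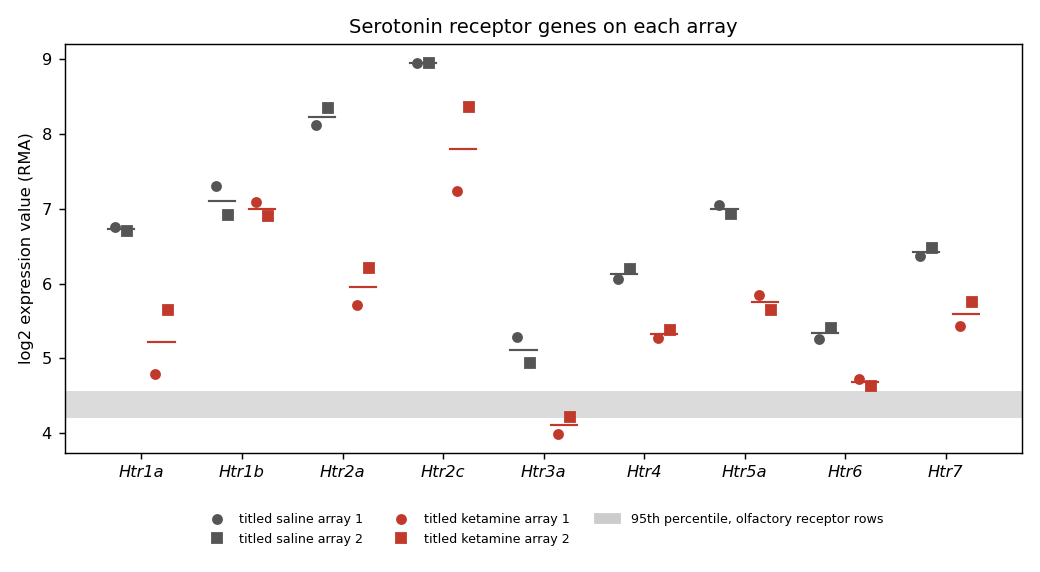
Log2 expression value (y axis) of the 9 serotonin receptor genes (x axis) on each array. Grey marks the arrays titled saline, red those titled ketamine, circles array 1 and squares array 2, short lines are group means, and the grey band spans the 95th percentiles that olfactory receptor rows had on the 4 arrays. Both red points lie under both grey points for every gene but Htr1b, and only Htr3a has red points, at 3.99 and 4.22, in or under the band.

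Among the receptors that couple to Gq, Htr2a had the largest difference of the 9 genes. Htr2a encodes the 5-HT2A receptor, the target of serotonergic hallucinogens. It read 8.13 and 8.35 on the arrays titled saline and 5.72 and 6.20 on those titled ketamine. The groups were 1.92 apart at their nearest points. This gave a log2 difference of -2.28 with a standard error of 0.175 (adjusted p = 0.000171 from limma), a level 4.84-fold lower, and it ranged from -2.52 to -2.03 with any 1 array left out.

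Htr2c, which encodes the 5-HT2C receptor, a regulator of feeding whose transcript is edited, read 8.96 on both arrays titled saline. On the arrays titled ketamine it read 7.24 and 8.36, a difference of 1.12 within the group. This gave a log2 difference of -1.16 with a standard error of 0.314 (adjusted p = 0.0284 from limma). It was -0.60 without titled ketamine array 1 and -1.72 without titled ketamine array 2. Htr2c was the only one of the 8 whose call was lost when limma was run with a trend in the variance and robust estimation (adjusted p = 0.229). Markers of the choroid plexus went the other way. Of 8 measured, 7 were higher (23.4% of all rows) and 1 did not pass, with a median log2 difference of 0.78 and mean levels of 6.62 and 6.65 on the arrays titled saline against 7.27 and 7.55. Their part in the Htr2c values was not tested.

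Among the receptors that couple to Gi and Go, Htr1a and Htr5a were lower and Htr1b did not pass. Htr1a encodes the 5-HT1A receptor, found on target neurons and, as an autoreceptor, on the serotonin neurons themselves. It read 6.76 and 6.70 on the arrays titled saline and 4.79 and 5.65 on those titled ketamine. This gave a log2 difference of -1.51 with a standard error of 0.251 (adjusted p = 0.00434 from limma), from -1.94 to -1.08 with 1 array left out. The groups did not overlap, but the arrays titled ketamine lay 0.86 apart.
Htr5a encodes the 5-HT5A receptor. It read 7.05 and 6.93 on the arrays titled saline and 5.85 and 5.65 on those titled ketamine. These pairs lay close together, and the log2 difference was -1.24 with a standard error of 0.120 (adjusted p = 0.000448 from limma).
Htr1b encodes the 5-HT1B receptor, which sits on axon terminals and limits transmitter release. It read 7.30 and 6.92 on the arrays titled saline and 7.09 and 6.91 on those titled ketamine, so that the groups overlapped. The log2 difference was -0.11 with a 95% interval from -0.47 to 0.25 (adjusted p = 0.611 from limma), and it was 0.082 without titled saline array 1. The interval leaves room for a difference of 1.3-fold lower, so that equal levels are not shown.

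The 3 genes of receptors that couple to Gs were lower, each by less than 2-fold. Htr4, for the 5-HT4 receptor, read 6.06 and 6.20 on the arrays titled saline and 5.27 and 5.38 on those titled ketamine, with a log2 difference of -0.81 (adjusted p = 0.00222 from limma). Htr6, for the 5-HT6 receptor, known from striatal neurons, read 5.26 and 5.41 against 4.72 and 4.63, a difference of -0.66 (adjusted p = 0.00519 from limma). Its values on the arrays titled ketamine lay only a little above the olfactory receptor 95th percentiles of 4.56 and 4.46. Htr7, for the 5-HT7 receptor, read 6.36 and 6.47 against 5.43 and 5.76, a difference of -0.82 (adjusted p = 0.00452 from limma). For each of these 3 genes the groups lay apart by more than the arrays within either group, 0.68 for Htr4, 0.53 for Htr6 and 0.61 for Htr7. Striatal markers were lower on the same arrays. Of 6 measured, 6 were lower (9.71% of all rows), with mean levels of 9.22 and 9.18 on the arrays titled saline against 6.87 and 7.20. Tac1, the precursor of substance P, differed between the arrays titled ketamine, at 4.88 and 6.69, and its log2 difference of -3.49 was -2.58 without titled ketamine array 1 and -4.39 without array 2. Their part in the receptor values was not tested.

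Htr3a, the subunit that forms the 5-HT3 channel, read 5.28 and 4.94 on the arrays titled saline and 3.99 and 4.22 on those titled ketamine. This gave a log2 difference of -1.01 with a standard error of 0.151 (adjusted p = 0.00294 from limma). Both values on the arrays titled ketamine lay under the olfactory receptor level (95th percentiles of 4.56 and 4.46), so that the size of the difference is not resolved. Of 10 measured interneuron markers, 7 were lower (9.71% of all rows), 1 was higher and 2 did not pass. Vip, a neuropeptide of interneurons that also carry the 5-HT3 receptor, was among those lower, at -2.03, although titled ketamine array 1 read it under the olfactory receptor level. Sst, Dlx1 and Cck were at -2.57, -2.10 and -1.94. Reln was the 1 marker that was higher, at 1.62, and Gad1 and Adarb2, at 0.19 and 0.20, did not pass. Mean levels of the interneuron list were 8.41 and 8.40 on the arrays titled saline and 7.47 and 7.43 on those titled ketamine, and their part in the Htr3a values was not tested.

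**Figure D2:**
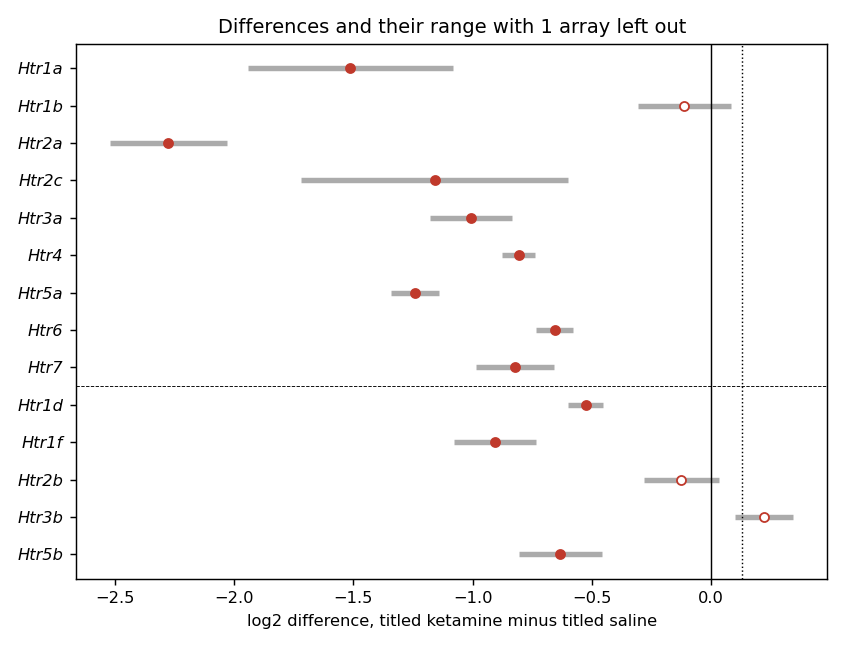
Log2 difference between the arrays titled ketamine and those titled saline (x axis) for the 9 receptor genes and, under the dashed line, 5 other serotonin receptor genes (y axis). Points are filled where the adjusted p from limma was under 0.05, grey bars span the values with any 1 array left out, and the dotted line is the median of all rows at 0.13. Htr2a lies farthest left at -2.28, and the bar of Htr2c is the longest, from -1.72 to -0.60.

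Of 5 other serotonin receptor genes, 3 were also lower and 2 did not pass. Htr1f, for a Gi-coupled receptor, read 6.05 and 6.03 on the arrays titled saline and 4.96 and 5.31 on those titled ketamine, with a log2 difference of -0.91 (adjusted p = 0.00308 from limma). Htr1d and Htr5b were lower as well, by log2 differences of -0.53 and -0.63, although Htr5b on titled ketamine array 1 lay under the olfactory receptor level. The 3 that passed compare with 9.71% of all rows. Htr2b and Htr3b did not pass, with differences of -0.12 and 0.22 (adjusted p = 0.509 and 0.214 from limma). Both lay under the olfactory receptor level of their array on all 4 arrays. Htr2b read from 2.93 to 3.25, and Htr3b, whose product joins that of Htr3a in the channel, read 4.12 and 4.24 against 4.53 and 4.28. The median log2 difference of these 5 genes was -0.53.

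Genes of serotonin synthesis, transport and breakdown passed at shares near or under those of all rows. Of 9 measured, 1 was lower (9.71% of all rows), 1 was higher (23.4% of all rows) and 7 did not pass, with a median log2 difference of -0.23. Ddc, the decarboxylase that makes serotonin and dopamine, was lower at -1.09 (adjusted p = 0.0105 from limma). Maoa, the monoamine oxidase that breaks serotonin down, was higher at 0.65 (adjusted p = 0.00577 from limma), reading 7.66 and 7.51 on the arrays titled saline and 8.17 and 8.30 on those titled ketamine. Maob, its paralog, had a difference of 0.33 (adjusted p = 0.0823 from limma).
In this list Tph2, Slc6a4 and Slc18a2 separated the 2 arrays titled ketamine from each other. Tph2, the enzyme that starts serotonin synthesis in neurons, read 6.15 and 6.09 on the arrays titled saline, 3.67 on titled ketamine array 1 and 6.00 on titled ketamine array 2. Its log2 difference was -1.29 with a standard error of 0.628 (adjusted p = 0.157 from limma). The value on array 1 lay under the olfactory receptor level of 4.56, and the value on array 2 lay close to both arrays titled saline. Slc6a4, the serotonin transporter, read 6.43 and 6.51 against 5.20 and 6.26, and Slc18a2, the vesicular monoamine transporter, 6.59 and 6.44 against 5.28 and 6.27. Neither passed (adjusted p = 0.102 and 0.0836 from limma). All 9 genes of this list read higher on titled ketamine array 2 than on array 1. The difference was only 0.081 to 0.19 for Tph1, Maob, Aldh2, Maoa and Gch1. Also higher on array 2 were 7 of 7 measured Hox genes of hindbrain and spinal cord position and 7 of 8 choroid plexus markers. Of these Hox genes, 3 lay under the olfactory receptor level on both arrays titled ketamine. Over all rows the median of array 2 minus array 1 was -0.0021.

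**Figure D3:**
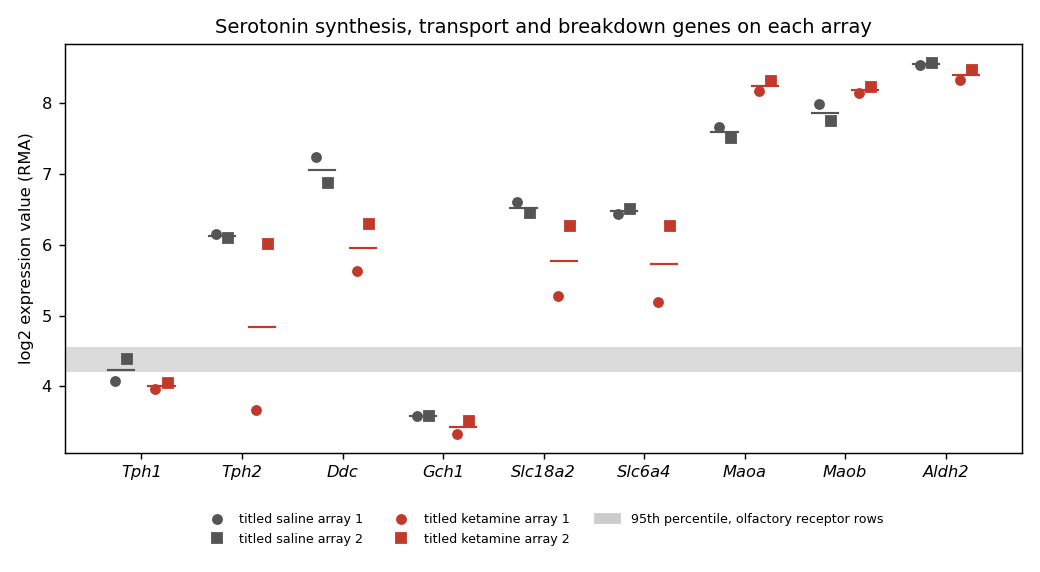
Log2 expression value (y axis) of 9 genes of serotonin synthesis, transport and breakdown (x axis) on each array, with colours, symbols, lines and band as in the plot of the receptor genes. Tph2 reads 3.67 on titled ketamine array 1 and 6.00 on array 2, and Slc18a2 and Slc6a4 also read lower on array 1, while the points of Maoa and Aldh2 lie close together within each group.

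Some receptor genes differed between the arrays titled ketamine in the same direction as Tph2, Slc6a4, Slc18a2 and Ddc. Array 2 minus array 1 was 1.12 for Htr2c, 0.86 for Htr1a and 0.49 for Htr2a, beside 2.34 for Tph2, 1.07 for Slc6a4, 0.99 for Slc18a2 and 0.67 for Ddc. The 95th percentile of the absolute difference between these 2 arrays over all rows was 0.40. A difference as large as that of Htr2c was seen in 0.0918% of all rows and one as large as that of Htr1a in 0.335%. The 6 other receptor genes lay within 0.40, from -0.20 for Htr5a to 0.33 for Htr7. Between the arrays titled saline 0 of the 9 receptor genes exceeded the 95th percentile of that pair, 0.45. Of the marker lists, the median of array 2 minus array 1 in the group titled ketamine was 0.30 for the choroid plexus, 0.15 for Hox genes of hindbrain and spinal cord position, 0.029 for striatum, -0.036 for cortical projection neurons, -0.18 for cerebellum and -0.23 for interneurons. Single markers lay well past 0.40 in the direction of Htr2c and Htr1a. These included striatal Tac1 at 1.82, striatal Drd2, a dopamine receptor gene, at 0.64 and the interneuron peptide gene Sst at 1.04. In the other direction, striatal Rgs9 lay at -0.405 and the interneuron markers Reln and Adarb2 at -0.45 and -0.42. Cortical Nrgn and cerebellar En2 were at -0.53 and -0.43. In all, 3 of 6 striatal, 3 of 10 interneuron, 3 of 8 choroid plexus, 1 of 9 cerebellar and 1 of 7 cortical markers were past 0.40 in either direction. The part of any such tissue in the receptor values was not tested.

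**Figure D4:**
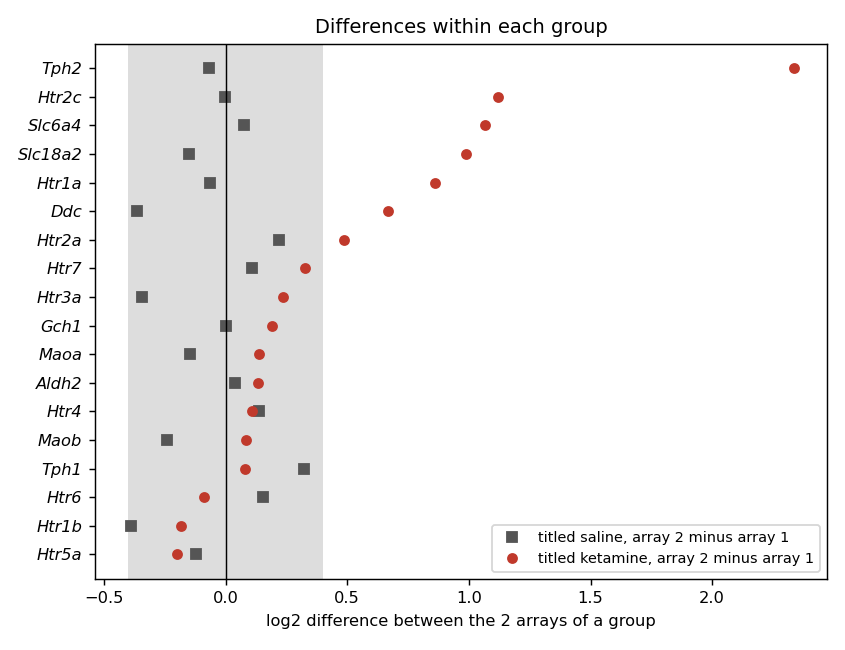
Difference between array 2 and array 1 of a group on the log2 scale (x axis) for the 9 receptor genes and 9 genes of serotonin synthesis, transport and breakdown (y axis), in red for titled ketamine and grey for titled saline. The shaded band spans 0.40 on either side of 0, the 95th percentile of all rows for the arrays titled ketamine. Tph2, Htr2c, Slc6a4, Slc18a2, Htr1a, Ddc and Htr2a lie to the right of the band in red, and every grey square lies within it.

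Genes of the signalling steps that the receptors act on were read against the shares of all rows, 9.71% lower and 23.4% higher. On the Gs side, where adenylyl cyclases make cAMP, 6 of 8 measured genes were lower and 2 higher. Adcy5, the main striatal adenylyl cyclase, was at -1.73, Adcy2 at -1.21 and Gnal, the Gs-like alpha subunit of striatum and olfactory neurons, at -0.84, while Adcy1, a calcium-stimulated cyclase abundant in cerebellum and hippocampus, was at 1.27. On the Gq side 2 of 7 were lower and 2 higher. Plcb1, the phospholipase C of forebrain neurons, was at -1.41 and Gna11, a Gq family alpha subunit, at -0.38, while Plcb4, the phospholipase C of many Purkinje cells, was at 1.32 and Plcb3 at 0.66. On the Gi and Go side 1 of 8 was lower and 2 higher, both near those shares. Gnaz, an inhibitory alpha subunit, was at -0.69, Gnai3 at 0.48 and the potassium channel gene Kcnj9 at 0.53. Of 10 genes for receptor partners and RNA editing, 1 was lower, 2 higher and 7 did not pass, again near the shares of all rows. Dlg4, the scaffold PSD-95, was at -0.73, Ric3, a chaperone of 5-HT3 and nicotinic receptors, at 0.51, and Adarb1, one of the enzymes that edit the Htr2c transcript, at 0.34. The medians of the Gs, Gq, Gi and Go, and partner lists were -0.52, -0.085, 0.074 and -0.016.

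**Figure D5:**
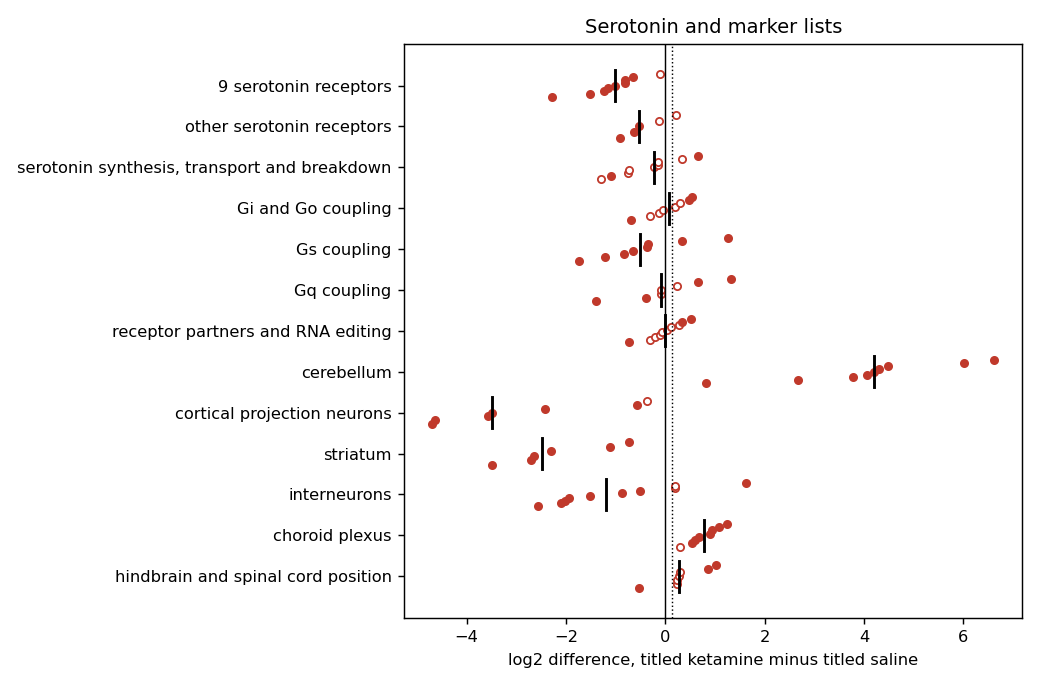
Log2 difference between the arrays titled ketamine and those titled saline (x axis) for the measured genes of each list (y axis). Points are genes and are filled at an adjusted p under 0.05 from limma, bars are list medians, and the dotted line is the median of all rows at 0.13. The receptor list has its median at -1.01, near that of the interneuron list at -1.20, while the cerebellar list lies to the right with a median of 4.21.

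Among the markers of the cerebellar list, Gabra6, Cbln3, Neurod1 and Car8 had log2 differences of 6.62, 6.01, 4.48 and 4.30. The arrays titled saline lay apart in these markers, with Gabra6 at 6.73 and 3.28, Car8 at 7.81 and 6.37 and Cbln3 at 5.75 and 4.52, and Gabra6 on titled saline array 2 under the olfactory receptor level. Without titled saline array 1 the differences of these 3 genes were 8.35, 5.02 and 6.62, and without titled saline array 2 they were 4.90, 3.58 and 5.39. Tbr1 was at -4.69, the calmodulin-binding protein gene Nrgn at -4.64, the cortical transcription factor gene Neurod6 at -3.58 and the kinase gene Camk2a at -3.50. Tbr1 and Neurod6, the latter at 3.93 and 4.01, lay under the olfactory receptor level on both arrays titled ketamine, which leaves the exact size of both differences unresolved. Of 7 measured Hox genes of hindbrain and spinal cord position, 2 were higher, 1 lower and 4 did not pass, near the shares of all rows (23.4% higher and 9.71% lower), with a median of 0.28. The 3 that passed, Hoxa2, Hoxc4 and Hoxb4, lay under the olfactory receptor level on all 4 arrays. The genes with the pattern nearest to that of Htr2a, by Euclidean distance over the 4 arrays after each gene was centred on its own mean, were Pdzrn3 (distance 0.0453), St6gal2 (0.114) and Dlgap2 (0.114), among 9656 genes at or above the median level. Their log2 differences, close to that of Htr2a by the way they were chosen, were -2.30, -2.30 and -2.23. None of the 9 receptor genes had a positive difference, so that the search was made for Htr2a alone.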

How the data were processed

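The authors deposited log2 values of 4 arrays, which per the labels were made by RMA in Affymetrix Expression Console (version and genome build: not given in the sources used here). RMA corrects background, equalises the distribution of probe values between arrays and combines probes into 1 value per transcript cluster, which compresses low values and partly removes a shift of most genes one way. Of 35556 rows, 21789 with exactly 1 gene symbol in the platform annotation were tested in R 4.3.3 with limma 3.58.1, using lmFit and eBayes without trend or robust options, two-sided, with Benjamini-Hochberg adjustment over all of them, with no filter on dim rows. The 9 symbols equalled those of a RefSeq table of GRCm38.p6 by gene number. Groups followed the titles, and the arrays are separate mice by the design text. The number of arrays limits the precision. The members and lists were chosen with earlier results of these data known, and lists are described by counts and medians only. Every receptor gene was named. Of each other list, up to 4 genes with the largest difference among those that passed were named, and any of the serotonin receptor and synthesis lists. A few further markers that went the other way were also named. Alternatives were the normalization, the moderation, a filter on dim rows, the replicate number as a block, the fold and each array left out. Genes of the lists without a row of their own symbol were not analysed here. Motif matches were counted in the bases before the start of RefSeq genes.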

Additional observations from a re-analysis of the deposited data

How the results depend on the processing

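The 8 calls and their directions were kept after quantile normalization, under median centring of the arrays and with the replicate block. Deviations of the arrays numbered 1 from their group means correlated at 0.034 across rows. This cannot exclude a pairing by title number that acts on some genes. With the replicate block 8 of the 9 receptor genes passed, and 65 in place of 62 of the 94 genes on the other lists. Over all 21789 rows, 8250 passed in either direction with the block, in place of 7224 in the main fit. With trend and robust options 7 of the 9 passed, without Htr2c, and 8130 of all rows. Over rows at or above the median level 5 of the 9 were tested and 4 passed, where 5341 of those rows passed in either direction. With 1 array left out, 0 to 6 of the 9 passed limma and 8 of the 9 were past 1.3-fold in every case. The lowest counts came without titled ketamine array 1 or array 2, when 0 of 21789 rows passed an adjusted p of 0.05, with 5974 and 6461 rows and 8 of the 9 receptor genes at an unadjusted p under 0.05. Without titled saline array 1, 6 passed, with Htr1a and Htr2c lost, and without titled saline array 2, 5 passed, with Htr7 lost too. At 2-fold 5 of the 9 passed in place of 8. The log2 difference of Htr1b, -0.11, ranged from -0.30 to 0.082 with 1 array left out, the positive value without titled saline array 1. With a lone array in a group, limma assumes that it varies like the other group, and calls lost there are no evidence of equal levels.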
